A study of Mus musculus with 32 samples.

Results

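The levels of 9 complement genes in mouse lung endothelial cells (ECs) were read out across 8 combinations of siRNA and cytokine. They were chosen by symbol from the merged count table: C1s1, C1ra, C4b, C2, C3, Cfb, Serping1, Cd55 and Cd59a, which are 9 of 54429 symbols in the table and 9 of the 15254 genes that passed the filter on low counts. All 9 passed the filter. The cells were Veravec, a cultured line of mouse lung ECs, so all libraries came from 1 line. In the si-dnmt groups the siRNA was directed at Dnmt1, the maintenance DNA methyltransferase, and in the si-control groups it was a control oligo, each given in 2 rounds of lipid transfection. Cells of each kind were then left without cytokine, or received tumour necrosis factor (TNF, 10 ng/mL), interferon gamma (IFN, 1000 U/mL), or both for 16 h. There were 4 libraries labelled as biological replicates in each of the 8 groups, 32 in all. The labels do not say what separates one replicate from another beyond its number.

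Complement is a cascade of plasma and membrane proteins. In the classical pathway the proteases C1r and C1s, bound to C1q on a surface, cut C4 and C2, and the fragments assemble into a convertase that cleaves C3. The alternative pathway forms its own C3 convertase from C3b and factor B, while C1 inhibitor blocks C1r and C1s, CD55 speeds the decay of the convertases and CD59 stops the terminal pore. The liver makes most of the plasma proteins, and many other cells, ECs among them, make part of the set locally, with interferon gamma and TNF known as inducers of several members.

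The genes lie in few places. In the GENCODE M21 annotation of GRCm38, C1ra (chromosome 6, 124512405 to 124523443, plus strand) and C1s1 (chromosome 6, 124530345 to 124542359, minus strand) are neighbours whose 3′ ends face each other. Cfb (chromosome 17, 34856374 to 34862518), C2 (34862604 to 34898265) and C4b (34728380 to 34743882) all lie on the minus strand in the major histocompatibility region. C3 is elsewhere on chromosome 17 (57203970 to 57228136, minus strand). Serping1 and Cd59a are on chromosome 2 (84765387 to 84775444, minus, and 104095801 to 104115354, plus) and Cd55 is on chromosome 1 (130439027 to 130462744, minus).

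RefSeq promoter windows on GRCm38.p6, from 250 bases before to 50 bases after a transcript's start, were matched for 5 of the 9 genes: C1s1, C1ra, C3, Cd55 and Cd59a. Those of C4b, C2, Cfb and Serping1 were not matched. The 4 windows printed here belong to the initiating proteases and C3, whose RNA rose with TNF and with both cytokines, and to Cd55, which was higher with si-dnmt. They are written 5′ to 3′ on the gene's own strand. Capitals mark every CG pair, the bases that DNA methyltransferases act on, and every match to the searched letters TTGCNNAA (a CCAAT/enhancer-binding protein motif) or TTCNNNGAA (the gamma-interferon activation site, GAS, bound by STAT proteins), on either strand.
C1s1, chr6:124542310-124542609, minus: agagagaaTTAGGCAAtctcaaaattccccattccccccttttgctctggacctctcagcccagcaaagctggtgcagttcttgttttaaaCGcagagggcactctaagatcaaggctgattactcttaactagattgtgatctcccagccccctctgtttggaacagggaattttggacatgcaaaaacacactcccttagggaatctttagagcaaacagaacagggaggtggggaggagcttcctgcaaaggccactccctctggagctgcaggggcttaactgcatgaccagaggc
C1ra, chr6:124512371-124512670, plus: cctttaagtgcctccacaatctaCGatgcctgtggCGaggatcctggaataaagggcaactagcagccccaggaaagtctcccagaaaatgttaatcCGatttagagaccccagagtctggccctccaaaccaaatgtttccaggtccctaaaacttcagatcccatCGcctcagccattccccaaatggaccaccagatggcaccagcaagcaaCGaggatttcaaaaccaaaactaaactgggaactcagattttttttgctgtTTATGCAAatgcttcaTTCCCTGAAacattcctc
C3, chr17:57228087-57228386, minus: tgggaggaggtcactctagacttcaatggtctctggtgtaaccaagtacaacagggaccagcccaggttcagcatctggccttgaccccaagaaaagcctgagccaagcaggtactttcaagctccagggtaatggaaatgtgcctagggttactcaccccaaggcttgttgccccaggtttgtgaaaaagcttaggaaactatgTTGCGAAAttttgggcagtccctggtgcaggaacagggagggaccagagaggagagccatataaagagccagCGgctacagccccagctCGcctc
Cd55, chr1:130462695-130462994, minus: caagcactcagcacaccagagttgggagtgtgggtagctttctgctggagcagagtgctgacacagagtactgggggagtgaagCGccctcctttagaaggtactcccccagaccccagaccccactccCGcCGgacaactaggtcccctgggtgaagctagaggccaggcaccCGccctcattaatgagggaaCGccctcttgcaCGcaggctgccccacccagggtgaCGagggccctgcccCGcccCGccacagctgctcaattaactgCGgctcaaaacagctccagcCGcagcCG

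The windows differed most in CG pairs, which numbered 12 in Cd55, 5 in C1ra, 3 in C3 and 1 each in C1s1 and Cd59a, beside a median of 7 over all 32851 windows. Of all windows, 60.4% held fewer CG pairs than the Cd55 window and 23.3% fewer than the C3 window. The C/EBP letters occurred once in C1s1 as TTAGGCAA, once in C1ra as TTATGCAA and once in C3 as TTGCGAAA, 45 bases before the start. They occurred in 10.8% of all windows. The GAS letters occurred only in C1ra among the windows matched (TTCCCTGAA, 32 bases after the start), and in 8.3% of all windows. An interferon-stimulated response element core, taken as 2 GAAA runs with 2 bases between them, was matched in Cd59a alone (GAAAGGGAAA, 187 bases before the start), and in 3.44% of all windows. The NF-kB motif was not matched in these 5 genes' windows and was matched in 8.46% of all. C1s1 has a further RefSeq start 38 bases downstream, whose window held no match to any of the 4 motifs. No methylation or binding was measured in these libraries, so these letters are given as descriptions of the windows.

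The libraries held 17362546 to 33500030 counts (median 20859668). Levels are counts per 1000000 (CPM) of a library's total over the genes that passed the filter, multiplied by its scaling factor (TMM, 0.88 to 1.09). On this scale 3 counts equal 0.0865 to 0.185 CPM. Dnmt1 checked the siRNA label in every state: without cytokine its level was 90.1, 89.1, 153 and 148 CPM with si-control and 10.3, 12.4, 6.45 and 6.53 CPM with si-dnmt, a log2 fold change of -3.76 ± 0.37 (SE, adjusted p = 4.77e-08), and it fell by 3.87, 3.95 and 4.08 on the log2 scale under TNF, IFN and both. The lowest si-control library in each state was above the highest si-dnmt library. All 10 endothelial markers passed the filter, with lowest library values of 0.116 CPM for Cldn5 and 0.863 CPM for Vwf. In si-control cells they summed to 5520 to 8320 CPM without cytokine, 3700 to 5370 with TNF, 4700 to 7380 with IFN and 3410 to 4700 with both, and in si-dnmt cells to 5090 to 7630, 3090 to 4540, 4750 to 6570 and 2680 to 4130. Of 8 leukocyte markers 3 passed, Cd68 (49.1 to 214 CPM), Lyz2 (1.21 to 133 CPM) and Csf1r (0.289 to 1.56 CPM). Ptprc, Adgre1 and Itgam reached at most 3 counts and Cd3e was at 0. Hepatocyte markers summed to at most 0.164 CPM, with Ttr and Serpina1a at 0 in every library. Of 6 epithelial markers 1 passed, Krt18 at 3.65 to 22.6 CPM, while Sftpc was at 0. Of 5 fibroblast markers 3 passed, and their sum was 1.64 to 2.64 CPM with si-control alone and 14.7 to 55.9 CPM with TNF added, nearly all of it Dcn. Of 5 pericyte and smooth muscle markers 3 passed, and their sum was 7.69 to 26.5 CPM with si-control and 39.3 to 183 CPM with si-dnmt, nearly all of it Acta2. The part of these markers in the results below was not tested. In bulk RNA, fewer cells of a type and less RNA per cell cannot be told apart.

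Replicates 1 and 2 stood apart from replicates 3 and 4 in several of these genes. In si-control without cytokine the mean of replicates 1 and 2 was 8.92 times that of replicates 3 and 4 for C3, 8.11 times for C1s1, 2.5 times for C4b and 1.59 times for Cfb. It was 0.398 times for C2. For Cd55, Cd59a and C1ra the ratio was 1.05, 1.13 and 0.875. The labels give no reason for the split, and every group holds 2 libraries of each set. Since same-numbered libraries also deviated together, a model with replicate number as a block was fitted too, and its value stands beside a result of the 9 genes wherever it changed the call.

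**Figure D1:**
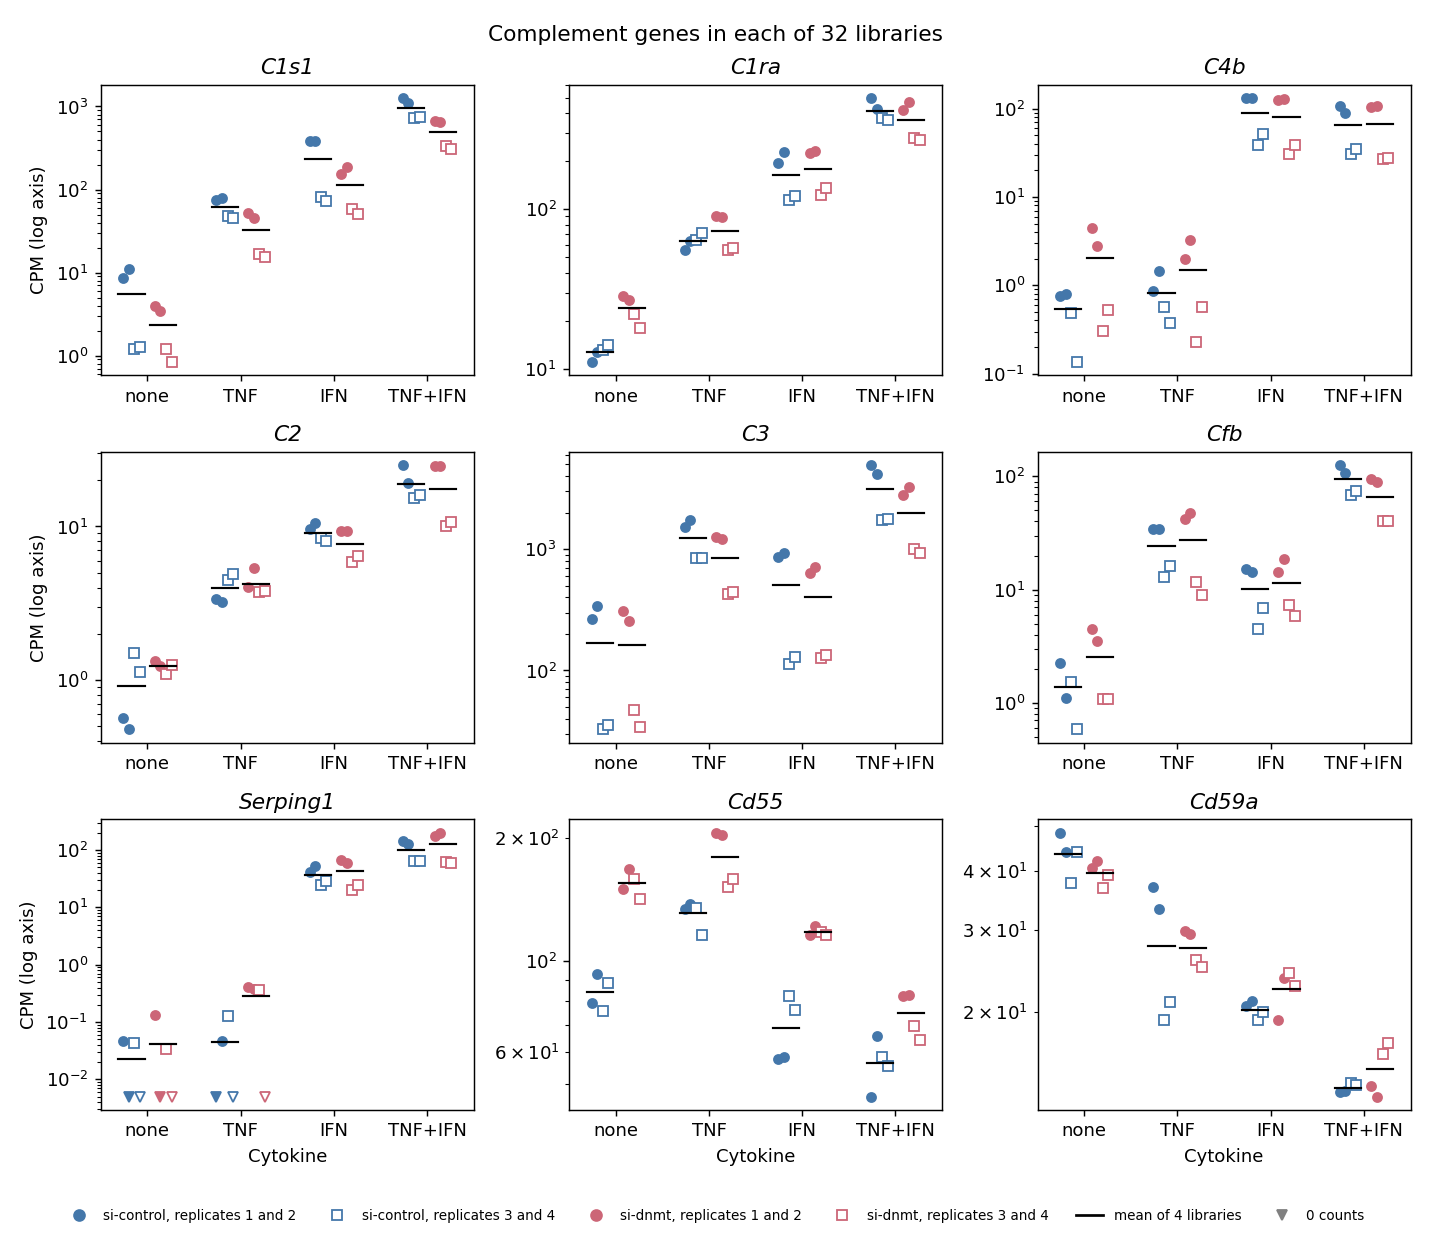
Level of each of the 9 complement genes in CPM (log axis) against cytokine, with si-control in blue and si-dnmt in red; each point is 1 library, filled for replicates 1 and 2 and open for replicates 3 and 4, triangles mark libraries with 0 counts, and black lines are means of 4. Without IFN Serping1 lies at 0 to 0.412 CPM and C4b at 0.135 to 4.5 CPM, and both lie at 20.3 CPM or more in every library with it, while Cd59a falls from 37.7 to 48.3 CPM with si-control alone to 13.5 to 14.1 CPM with both cytokines.

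Before any cytokine, the highest mean levels among the 9 genes in si-control cells were those of C3, Cd55 and Cd59a. Per kilobase of exon, which allows genes to be compared, si-control cells held 32.8 ± 30.8 (SD, n = 4) CPM per kb of C3, 24 ± 2.42 of Cd59a and 17.3 ± 1.67 of Cd55. The C3 mean rested on replicates 1 and 2 (51.5 and 66.4 CPM per kb), while replicates 3 and 4 held 6.36 and 6.86, below Cd59a (20.8 and 24.3) and Cd55 (15.5 and 18.2) in the same libraries. C1ra followed at 4.29 and C1s1 at 1.78 CPM per kb, and Cfb, C2 and C4b at 0.486, 0.236 and 0.095. Serping1 had 2 counts in all 4 libraries together, below the floor of 3 counts per library. With TNF and IFN together the order changed to C3 at 610 CPM per kb, C1s1 at 307, C1ra at 138, Serping1 at 43.2, Cfb at 33.2, Cd55 at 11.7, C4b at 11.4, Cd59a at 7.61 and C2 at 4.88. By these means Cd59a and Cd55 stood next to C3 without cytokine, and below C3, C1s1, C1ra, Serping1 and Cfb with both.

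**Figure D2:**
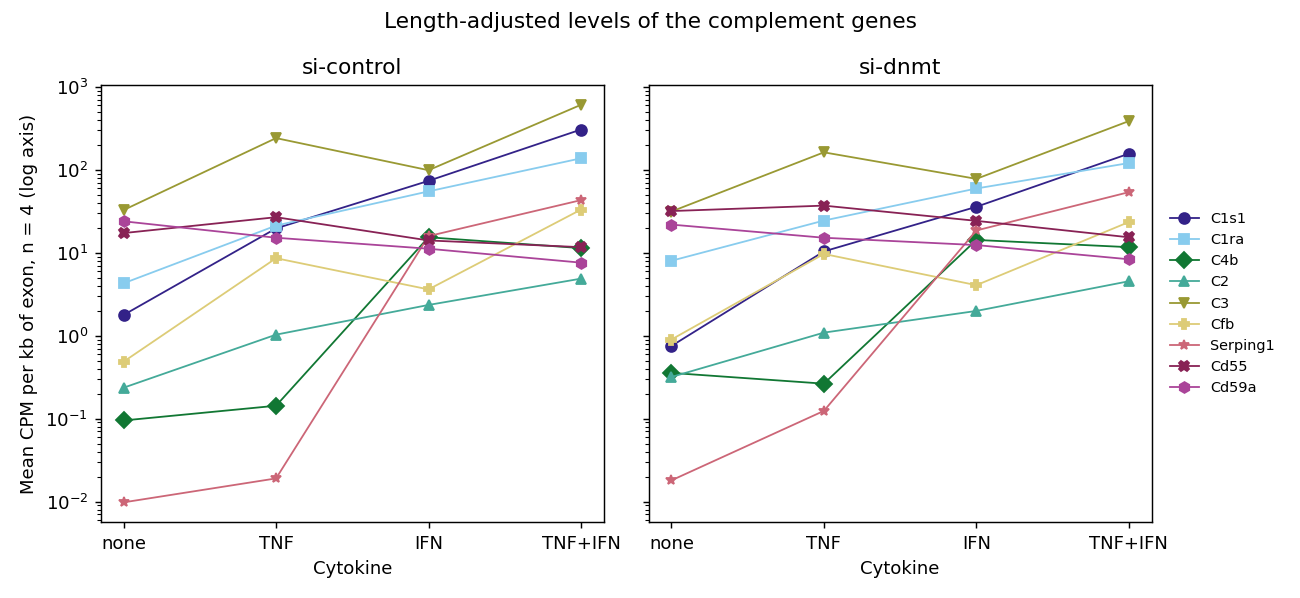
Mean level of each gene in CPM per kilobase of exon (log axis, n = 4 libraries, error bars left out) in each cytokine state, with si-control on the left and si-dnmt on the right; lines join the states of 1 gene. C3 has the highest mean in each state save si-dnmt without cytokine, where Cd55 stands beside it (31.9 against 31.5), although in replicates 3 and 4 it lies below Cd55 and Cd59a without cytokine and below C1ra with IFN. C4b and Serping1 lie below the other genes with TNF. With IFN they lie above Cd59a, Cfb and C2 in each panel, and above Cd55 with si-control only.

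The first question was how the cytokines moved the set. In si-control cells TNF raised 6 of the 9 genes and lowered 1 (edgeR, adjusted p under 0.05), where 16.1% of all genes were called higher and 14.6% lower. IFN likewise raised 6 and lowered 1, where 8.56% of all genes were higher and 5.92% lower. Both together raised 7 and lowered 2, so that all 9 were called, where 23.5% were higher and 21.6% lower. The median log2 fold change of the 9 was 2.1, 3.29 and 5.01 in these comparisons, beside -0.01 for all genes in each. Because the 9 genes were chosen with earlier results of these data known, these counts and medians describe them and do not test the set. In si-dnmt cells the counts were 5 higher and 1 lower with TNF, beside 11.5% of all genes higher and 9.54% lower. They were 6 and 2 with IFN, beside 6.66% and 2.35%, and 7 and 2 with both, beside 21.3% and 18.9%. The contrasts under 1 siRNA share their libraries without cytokine.

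**Figure D3:**
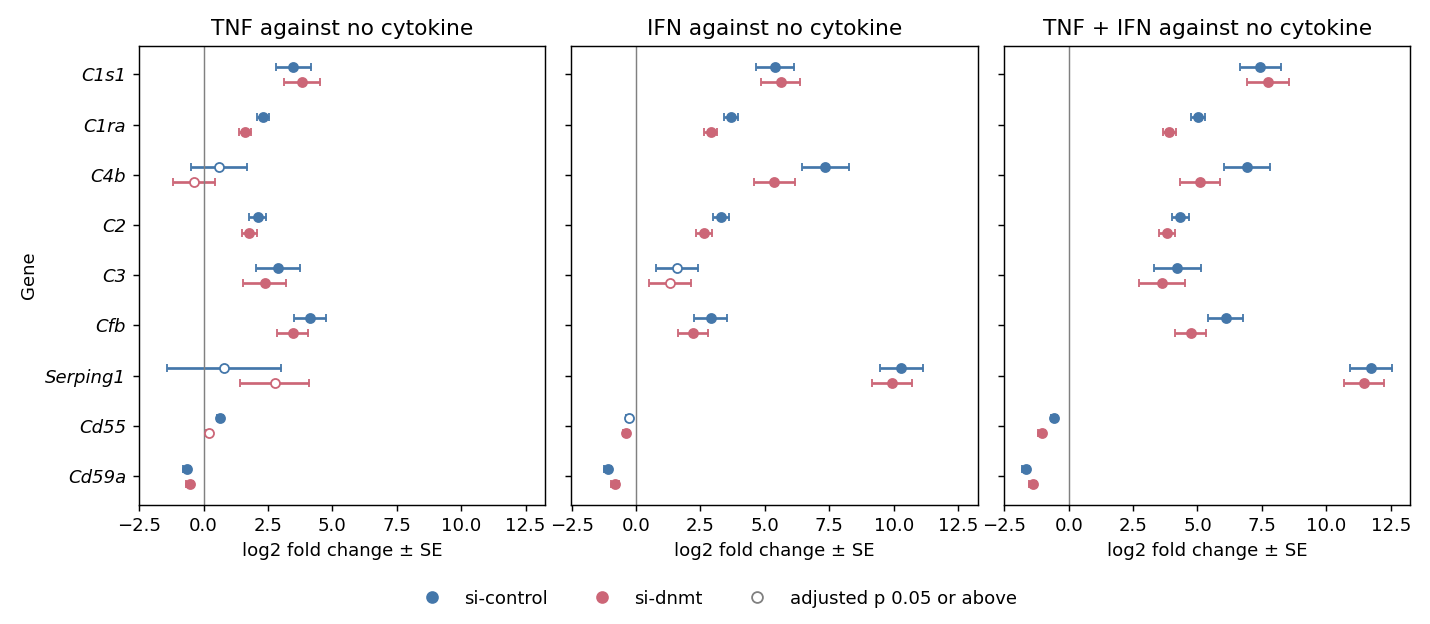
Log2 fold change with its standard error of each gene for TNF, IFN and both against no cytokine, in si-control (blue) and si-dnmt (red) libraries; filled points have an adjusted p under 0.05 by edgeR. With both cytokines the 7 genes for secreted proteins lie to the right of 0, at 3.62 to 11.74, and Cd55 and Cd59a lie to the left, at -0.57 to -1.66.

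C1s1, which encodes the protease that cleaves C4 and C2, rose with each cytokine and most with both. Its level was 8.68, 11.1, 1.19 and 1.26 CPM in si-control replicates 1 to 4, and 74.5, 79.2, 47.4 and 45.6 CPM with TNF. With IFN it was 387, 381, 82.1 and 73 CPM, and with both 1260, 1090, 721 and 757 CPM. No cytokine group overlapped the untreated group, although IFN replicates 3 and 4 lay near the TNF values. TNF gave a log2 fold change of 3.49 ± 0.68 (adjusted p = 0.00026), IFN one of 5.39 ± 0.73 (adjusted p = 2.57e-06) and the pair one of 7.44 ± 0.80 (adjusted p = 1.05e-08), the last a 174-fold rise. In si-dnmt cells they were 3.82, 5.61 and 7.74.

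C1ra, which encodes the protease that activates C1s, had the same order of mean levels from a steadier base. Its si-control libraries held 11, 12.8, 13.2 and 14 CPM, and those with TNF 55.1, 63.5, 64.2 and 70.5 CPM. With IFN they held 194, 228, 114 and 121 CPM, and with both 496, 422, 373 and 360 CPM. The 4 groups did not overlap at any step. The log2 fold changes were 2.31 ± 0.25, 3.68 ± 0.26 and 5.01 ± 0.28 (edgeR adjusted p = 4.27e-08, 7.02e-12 and 1.2e-14). With si-dnmt they were 1.61, 2.90 and 3.91.

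C4b, the source of the C4 that C1s cleaves, answered IFN and not detectably TNF. It was at 0.751, 0.795, 0.483 and 0.135 CPM in si-control libraries (45 counts in all) and at 0.859, 1.45, 0.562 and 0.371 CPM with TNF, a difference of 0.60 ± 1.08 on the log2 scale that was not called (adjusted p = 0.723). With IFN it was 131, 131, 39.1 and 50.9 CPM, and with both 106, 89.2, 30.9 and 34.4 CPM. The libraries with IFN were all above those without it, and the 2 groups with IFN overlapped each other. The log2 fold change was 7.35 ± 0.91 with IFN (164-fold, adjusted p = 4.44e-07), or 6.29 with the counts of its near-identical copy C4a added, and 6.92 ± 0.90 with both (adjusted p = 3.08e-07).

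C2, the partner of C4b in the classical convertase, rose with each cytokine and with both. It was at 0.563, 0.477, 1.49 and 1.12 CPM in si-control libraries, 3.35, 3.24, 4.46 and 4.92 with TNF, 9.58, 10.5, 8.35 and 7.99 with IFN and 25, 19.3, 15.3 and 16 with both. No 2 of these groups overlapped. The log2 fold changes were 2.10 ± 0.32, 3.29 ± 0.32 and 4.34 ± 0.32 (adjusted p = 1.04e-05, 5.2e-09 and 8.46e-12).

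C3, on which the pathways converge, had a larger fold change with TNF than with IFN, a difference that was not itself tested. It was at 265, 342, 32.7 and 35.3 CPM in si-control libraries and at 1530, 1750, 851 and 839 CPM with TNF. With IFN it was 866, 933, 113 and 128 CPM, and with both 4900, 4130, 1750 and 1760 CPM. The IFN and untreated groups overlapped, while every IFN library was above its same-numbered untreated library. The log2 fold change was 2.88 ± 0.86 with TNF (adjusted p = 0.011) and 4.22 ± 0.91 with both (adjusted p = 0.000381). With IFN it was 1.60 ± 0.82 and not called (adjusted p = 0.223), but called with the replicate block at 1.65 (adjusted p = 0.000141). Within replicates 1 and 2 the IFN value was 1.59 and within replicates 3 and 4 it was 1.83. In si-dnmt cells the IFN value of 1.31 was again not called, and was called with the block (1.41, adjusted p = 0.00106) and within each replicate set (1.25 and 1.67). The TNF value there, 2.37 (adjusted p = 0.0433), lost its call on leaving out any of 5 libraries, namely si-dnmt replicates 2, 3 and 4 and si-dnmt + TNF replicates 1 and 2, at values of 2.04 to 2.90 over all single libraries left out.

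Cfb, which encodes factor B of the alternative pathway, also had its larger single-cytokine fold change with TNF. It was at 2.25, 1.11, 1.54 and 0.583 CPM in si-control libraries and at 34.3, 34.1, 12.9 and 16 CPM with TNF. With IFN it was 15.2, 14.3, 4.47 and 6.86 CPM, and with both 125, 108, 68.2 and 74.6 CPM. All cytokine libraries were above all untreated ones, and those with both were above the rest. The log2 fold changes were 4.14 ± 0.63, 2.89 ± 0.63 and 6.09 ± 0.67 (adjusted p = 1.16e-05, 0.00152 and 1.56e-08), the last a 68.1-fold rise. In si-dnmt cells the IFN value of 2.20 (adjusted p = 0.012) lost its call on leaving out si-dnmt replicate 3, si-dnmt replicate 4 or the second si-dnmt + IFN replicate, at values of 1.86 to 2.62.

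Serping1, the gene of C1 inhibitor, showed the widest range of the set. It had 1, 0, 1 and 0 counts in the si-control libraries and 0, 1, 3 and 0 with TNF, so neither group stood above the floor. With IFN it held 41.6, 52.6, 24.4 and 28.9 CPM (2737 counts in all), and with both 143, 128, 65.6 and 64.9 CPM (7726 counts). The ratio of summed counts to si-control, scaled for library size, was 1580 with IFN (95% counting interval 436 to 13000) and 4380 with both (1210 to 36200). The edgeR log2 fold changes were 10.3 ± 0.83 (adjusted p = 1.09e-10) and 11.74 ± 0.81 (adjusted p = 1.81e-12). The libraries with IFN were far above those without it, and all those with both cytokines were above all those with IFN alone. In si-dnmt cells the ratios were 1050 (408 to 3840) and 3150 (1230 to 11600). These intervals cover counting error only. With TNF alone the si-dnmt libraries held 9, 8, 8 and 0 counts against 3, 0, 1 and 0 without, a log2 difference of 2.76 ± 1.33 that was not called (adjusted p = 0.148), but was with the replicate block (adjusted p = 0.0137) and by DESeq2 (adjusted p = 0.0147).

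Cd55 and Cd59a, whose products sit on the EC membrane, moved against the secreted components when both cytokines were given. The summed level of the endothelial markers was also lower with both, without overlap (3410 to 4700 against 5520 to 8320 CPM in si-control cells), and its part in these results was not tested. Cd55, the decay-accelerating factor, was at 79.1, 92.9, 75.4 and 88.4 CPM in si-control libraries and at 134, 138, 135 and 116 CPM with TNF. With IFN it was 57.6, 58.3, 82.1 and 76 CPM, and with both 46.7, 65.7, 58.2 and 55.6 CPM. TNF libraries lay above and those with both below the untreated ones, and IFN libraries overlapped them. The log2 fold change was 0.64 ± 0.12 with TNF (adjusted p = 0.000188) and -0.57 ± 0.12 with both (adjusted p = 0.000335). With IFN alone the value was -0.29 ± 0.12 and was not called (adjusted p = 0.112), except on leaving out si-control + IFN replicate 3 (-0.39) and within replicates 1 and 2 (-0.55, adjusted p = 0.00108). In si-dnmt cells TNF gave 0.22 ± 0.12, which was not called (adjusted p = 0.215). IFN gave -0.39 ± 0.12 (adjusted p = 0.0386), and the pair gave -1.05 ± 0.12 (adjusted p = 5.38e-08). The IFN call there was lost on leaving out any 1 of 7 of the 8 libraries, at values of -0.43 to -0.35.

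Cd59a, the inhibitor of the membrane attack complex, fell in all 6 comparisons. It was at 48.3, 43.9, 37.7 and 44 CPM in si-control libraries, 37, 33.2, 19.2 and 21 with TNF, 20.6, 21.1, 19.2 and 20 with IFN and 13.5, 13.6, 14.1 and 14 with both. Every cytokine library was below every untreated one. The log2 fold change was -0.66 ± 0.14 under TNF (adjusted p = 0.00068), -1.10 ± 0.14 under IFN (adjusted p = 9.46e-07) and -1.66 ± 0.14 under the pair (adjusted p = 1.95e-10). In si-dnmt cells the values were -0.53, -0.82 and -1.39. The TNF value differed between the replicate sets, at -0.38 in replicates 1 and 2 and -1.02 in replicates 3 and 4.

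The next question was whether the combination departed from the sum of the single log2 responses. Of the 9 genes only Cd55 was called, lower than that sum, in si-control (-0.91 ± 0.17, adjusted p = 0.0033, beside 1.06% of all genes called) and in si-dnmt cells (-0.88 ± 0.17, adjusted p = 0.0106, beside 0.354%). Cd55 thus rose with TNF in si-control cells, and with IFN added to TNF it ended below its untreated level. With the replicate block C1s1 was also called lower than the sum of log2 responses under each siRNA (-1.37, adjusted p = 0.0355, and -1.53, adjusted p = 0.047), and C1ra in si-control cells (-0.94, adjusted p = 0.0158), beside 4.23% and 1.82% of all genes called with the block in si-control and si-dnmt. On the linear scale, as a description, the si-control mean with both cytokines was 3.28 times the sum of the 2 single-cytokine means for C1s1, 2.72 times for Cfb and for Serping1, 1.81 for C1ra, 1.79 for C3, 1.44 for C2 and 0.734 for C4b. C4b was the one secreted component whose mean with both was below that with IFN alone.

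The main question of the design was what loss of Dnmt1 did in each state. Without cytokine 2 of the 9 genes were called higher with si-dnmt, Cd55 and C1ra, and 0 lower, beside 9.58% of all genes higher and 8.88% lower. Under TNF 1 was higher and 0 lower (beside 10.4% and 9.59%), under IFN 1 and 0 (beside 10.8% and 9.54%) and under both 1 and 0 (beside 8.97% and 8.72%), in each case Cd55. The counts under the cytokines are near what the background shares give for 9 genes. With the replicate block the counts were 3 higher and 1 lower without cytokine (beside 32.4% of all genes), 2 and 1 under TNF (33.4%), 1 and 1 under IFN (34.5%) and 1 and 2 under both (30.8%).

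**Figure D4:**
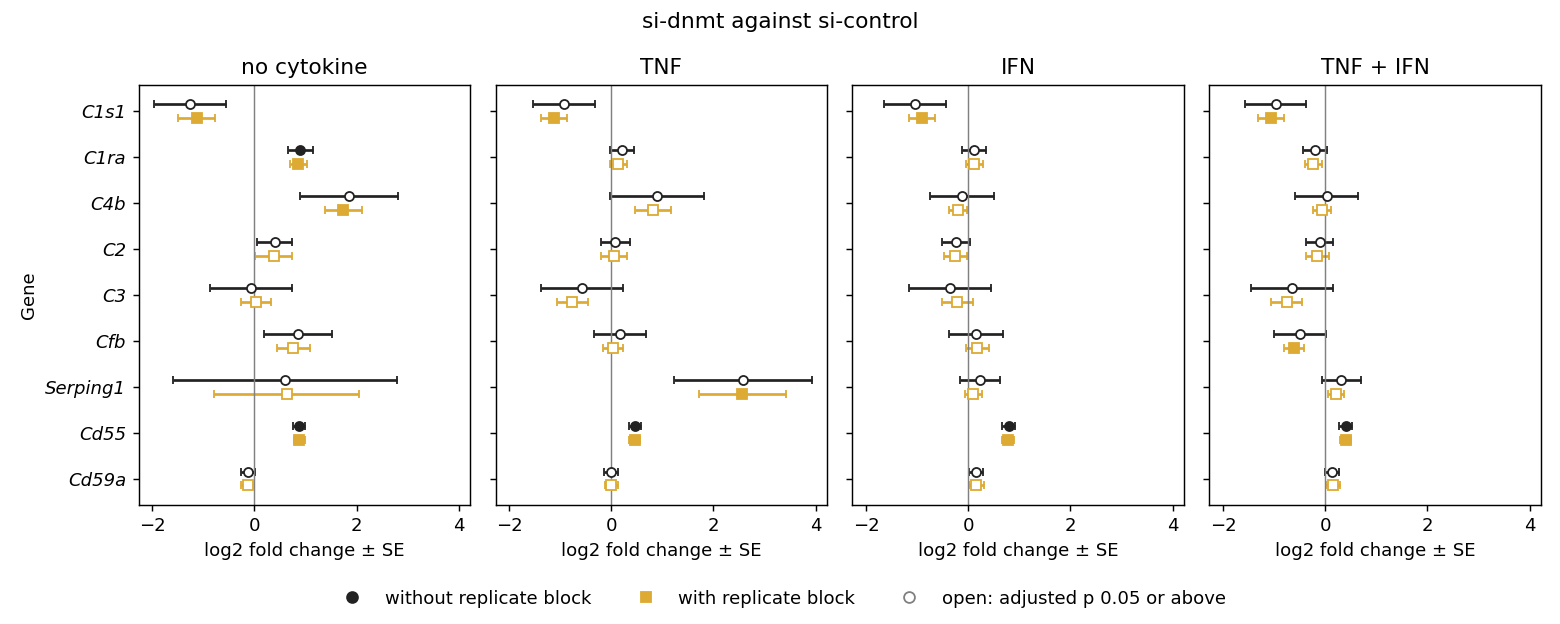
Log2 fold change with its standard error of each gene for si-dnmt against si-control in the 4 cytokine states, without the replicate block (black circles) and with it (yellow squares); filled points have an adjusted p under 0.05. Cd55 is filled in all 4 states by either model, at 0.40 to 0.88, and C1s1 lies at -0.90 to -1.26 and is filled only with the block.

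Cd55 was higher with si-dnmt in each state. Without cytokine its si-dnmt libraries held 150, 168, 159 and 142 CPM against 75.4 to 92.9 in si-control, a log2 fold change of 0.88 ± 0.12 (adjusted p = 6.98e-06). With TNF they held 206, 203, 152 and 159 CPM against 116 to 138 (0.46 ± 0.12, adjusted p = 0.00683). The groups did not overlap in either state. With IFN they held 116, 122, 118 and 116 CPM against 57.6 to 82.1 (0.79 ± 0.12, adjusted p = 3.46e-05), again without overlap. With both they held 82.2, 82.7, 69.6 and 64.1 CPM against 46.7 to 65.7 (0.40 ± 0.12, adjusted p = 0.0216), where the lowest si-dnmt library lay under the highest si-control library. That last call was lost on leaving out any of 4 libraries, namely replicates 1 and 4 of si-control + TNF + IFN and replicates 1 and 2 of si-dnmt + TNF + IFN, at values of 0.32 to 0.48, and within replicates 3 and 4 alone (0.23, adjusted p = 0.0665). Without cytokine the value was 0.89 within replicates 1 and 2 and 0.88 within replicates 3 and 4. The highest of the 8 mean levels of Cd55 was in si-dnmt + TNF (180 ± 28.5 CPM) and the lowest in si-control + TNF + IFN (56.6 ± 7.84 CPM).

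C1ra was called without cytokine only, at 28.6, 26.9, 22 and 18.1 CPM in si-dnmt against 11 to 14 CPM in si-control. The groups did not overlap, and the log2 fold change was 0.90 ± 0.24 (adjusted p = 0.00864). Under TNF, IFN and both its value was 0.21, 0.11 and -0.20 and not called (adjusted p = 0.59, 0.779 and 0.618). Within replicates 1 and 2 the value without cytokine was 1.23, and within replicates 3 and 4 it was 0.56.

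C1s1 had lower mean levels with si-dnmt in every state without being called. The si-dnmt libraries held 3.96, 3.42, 1.19 and 0.834 CPM without cytokine, 51.5, 45.9, 16.8 and 15.6 with TNF, 155, 185, 58.2 and 51.3 with IFN and 676, 647, 337 and 304 with both. Under both cytokines all 4 lay below all 4 si-control libraries, and in the other states the groups overlapped. The log2 differences were -1.26, -0.93, -1.04 and -0.97 (adjusted p = 0.238, 0.314, 0.237 and 0.295). With the replicate block each was called, at -1.13, -1.12, -0.90 and -1.06 (adjusted p = 0.0165, 0.00129, 0.00552 and 0.00148). Within replicates 1 and 2 the differences ran from -1.41 to -0.66 over the states, and within replicates 3 and 4 from -1.52 to -0.26.

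In 3 further differences the block changed the call. C4b without cytokine held 4.5, 2.78, 0.307 and 0.521 CPM with si-dnmt against 0.135 to 0.795 with si-control, a log2 difference of 1.86 ± 0.96 that was not called (adjusted p = 0.189), and with the block 1.74 (adjusted p = 0.000393). The high values were those of replicates 1 and 2, where the difference was 2.23, against 0.41 in replicates 3 and 4. Serping1 under TNF had 9, 8, 8 and 0 counts with si-dnmt against 0, 1, 3 and 0 with si-control, a ratio of summed counts of 6.62 (95% counting interval 2.29 to 26.2). By edgeR its log2 difference was 2.57 ± 1.35 (adjusted p = 0.195), and the adjusted p was 0.0211 with the block and 0.0256 by DESeq2. Its level there, at most 0.412 CPM, stayed far below the 20.3 CPM or more of every library with IFN. Cfb under both cytokines held 95.6, 89.5, 40.1 and 40.1 CPM with si-dnmt against 68.2 to 125 with si-control, a log2 difference of -0.50 ± 0.51 (adjusted p = 0.558), and with the block -0.61 (adjusted p = 0.0179).

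In the fits on all 32 libraries C3, C2 and Cd59a passed the threshold in none of the 4 states, with the block or without it. C3 held 310, 256, 47.5 and 34.4 CPM with si-dnmt alone, beside 265, 342, 32.7 and 35.3 CPM with si-control, and the 2 groups covered one range. With both cytokines it held 2810, 3240, 997 and 924 CPM, each below its same-numbered si-control library, for a log2 difference of -0.65 ± 0.80 (adjusted p = 0.643, and 0.056 with the block). Under TNF the C3 difference was -0.57 ± 0.80 (adjusted p = 0.68, and 0.0518 with the block). Replicates 1 and 2 alone called C3 lower under TNF (-0.40), IFN (-0.43) and both (-0.58). Replicates 3 and 4 alone called it lower under TNF (-0.96) and both (-0.87), and not under IFN (0.11). How many of all genes these smaller fits called was not taken. The log2 difference of Cd59a lay between -0.13 and 0.15 in the 4 states, with a standard error of 0.14.

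Whether silencing changed the response to a cytokine was tested by the siRNA-by-cytokine interaction. By edgeR 0 of the 9 genes were called for TNF, IFN or both, beside 0.0328%, 0.0459% and 0.531% of all genes. At an unadjusted p under 0.05 there were 2, 1 and 2 genes, all with a smaller or more negative response in si-dnmt cells, and DESeq2 called 0. For TNF these were C1ra (-0.70 ± 0.33) and Cd55 (-0.42 ± 0.17), for IFN C1ra (-0.79 ± 0.33), and for both C1ra (-1.10 ± 0.33, adjusted p = 0.159) and Cd55 (-0.48 ± 0.17, adjusted p = 0.275). With the block 0 were called for TNF (beside 0.892% of all genes) and C4b for IFN (-1.95, adjusted p = 0.0132, beside 0.387%). For both, where 4.18% of all genes were called, the block gave C4b (-1.81, adjusted p = 0.00752), C1ra (-1.09, adjusted p = 0.0062) and Cfb (-1.37, adjusted p = 0.0328). These 3 genes had higher means in si-dnmt than in si-control cells before any cytokine (C4b 2.03 against 0.541 CPM, C1ra 23.9 against 12.8, Cfb 2.54 against 1.37). With both cytokines their means were 66.5 against 65.2, 359 against 413 and 66.3 against 93.9 CPM. Within replicates 1 and 2 the interaction for both was -2.12 for C4b, -1.28 for C1ra and -1.56 for Cfb. In replicates 3 and 4 it was -0.66, -0.98 and -0.86, called for C1ra alone. The C4b interaction for IFN was -2.28 in the first set and -0.77, not called, in the second. With C4a added and no block, C4b stood at -1.19 instead of -1.98 for IFN, and at -1.06 instead of -1.84 for both.

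Several members have near-identical copies or overlapping genes that could share reads. C1rb, beside C1ra, held 1.91 to 96.3 CPM, C1s2 0 to 21.6 and C4a 0.212 to 6.35, whereas Cd55b and Cd59b reached at most 12 and 13 counts in a library. Summing each pair changed no call of the 9 genes. It lowered the C4b response in si-control cells from 7.35 to 6.29 with IFN and from 6.92 to 5.88 with both, and the uncalled C4b difference with si-dnmt without cytokine from 1.86 to 1.09, all on the log2 scale. In the annotation, 79.5% of the exon bases of Cfb and 42.8% of those of C2 also belong to Gm20547, a gene on the same strand that spans both, and Gm20547 was listed at 0 in every library. The sources used here do not say how reads over 2 genes were counted, and the levels of Cfb and C2 are therefore uncertain in scale. The antisense gene Gm16567 covers 18.4% of C1s1's exon bases and was at 0 as well. Gm16083 covers 2.1% of Cd55's and reached 15 counts. Zbtb12 covers 4.16% of C2's and held 7.01 to 29.6 CPM. Whether counting used strand is not given, so sense and antisense reads cannot be told apart.

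Beyond the 9 genes, 51 other complement genes were looked up, and 18 passed the filter. The C1q chains, which C1r and C1s need to act, reached at most 2 counts in any library. Of the terminal components, C6, C8a, C8b and C9 reached at most 3 counts, C7 at most 17 and Hc, the gene of C5, at most 11, while C8g passed the filter at 1.04 to 2.44 CPM. Of the 18, TNF raised 4 and lowered 3 in si-control cells (beside 16.1% and 14.6% of all genes), IFN raised 5 and lowered 1 (8.56% and 5.92%), and both raised 5 and lowered 4 (23.5% and 21.6%). In si-dnmt cells these counts were 4 and 2 (11.5% and 9.54%), 4 and 1 (6.66% and 2.35%), and 6 and 4 (21.3% and 18.9%). The counts with TNF and with both are near the background shares. Among the genes raised were C1rb and C1s2 in each comparison and C4a in each with IFN. These are near-identical copies of C1ra, C1s1 and C4b and may share reads with them, so they are not separate observations. With the replicate block the list gained 2 to 5 calls in each of these comparisons and lost 0. The share of all genes called with the block was not taken there. Both lists were chosen with earlier results of these data known, so their medians are given as descriptions. The median log2 fold change of the 18 was -0.06, 0.14 and -0.05 in si-control cells, beside 2.1, 3.29 and 5.01 for the 9.

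Among them the proteases of the first component moved with C1ra and C1s1. C1rb rose from 2.55 ± 0.545 to 77.4 ± 10.2 CPM with both cytokines (log2 fold change 4.91, adjusted p = 8.66e-14) and C1s2 from 0.107 ± 0.079 to 19.8 ± 1.61 CPM (7.47, adjusted p = 2.37e-12). C1rl, a C1r-like protease gene, rose from 6.21 to 39.5 CPM (2.67, adjusted p = 1.49e-14), and C4a from 0.615 to 3.17 CPM (2.34, adjusted p = 0.000632). Masp1, which encodes a protease of the lectin pathway, went the other way. It was at 23.1, 22.1, 7.12 and 7.09 CPM in si-control libraries and at 0.192, 0.364, 0.185 and 0.318 CPM with both (-5.77 ± 0.93, adjusted p = 9.77e-06), and fell by 3.88 on the log2 scale with TNF. With IFN alone Masp1 was called with the block (-1.19, adjusted p = 0.000108) and not without it (adjusted p = 0.392). C5ar2, a C5a receptor gene, had 63 counts in si-control libraries and 0 with both, so it was at least 4.71-fold lower, taking 3 counts per library as the floor. Cd93, an EC surface receptor once held to bind C1q, fell from 1140 to 316 CPM with both (adjusted p = 1.22e-07), and its TNF value was called with the block (-0.50, adjusted p = 0.000804) and not without it (-0.45, adjusted p = 0.123). Cr2, complement receptor 2, was called with TNF in si-dnmt cells, at 1.26 against 0.529 CPM (adjusted p = 0.0355).

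With si-dnmt, the longer list gave 3 higher and 0 lower without cytokine (beside 9.58% and 8.88% of all genes), 3 and 1 under TNF (10.4% and 9.59%), 2 and 1 under IFN (10.8% and 9.54%), and 1 and 1 under both (8.97% and 8.72%), which is near the background. With the block these counts were 3 and 2, 5 and 2, 2 and 5, and 4 and 3. The block called 32.4%, 33.4%, 34.5% and 30.8% of all genes in either direction, so these counts are again near the background. Cr2 under TNF (1.15, adjusted p = 0.0172) and Masp1 (-0.94, adjusted p = 0.00222) and C1s2 (-0.76, adjusted p = 0.039) under IFN were among the genes then called. C3ar1, the receptor for C3a, was higher in all 4 states. Its si-dnmt libraries held 5.7, 6.37, 13.7 and 11.8 CPM without cytokine against 3.61, 3.87, 4.79 and 4.62 in si-control, without overlap (1.15 ± 0.27, adjusted p = 0.00322), and the other states gave 0.97, 0.86 and 0.83. C1rl was higher in 3 states, at 11.3 against 6.21 CPM without cytokine (0.86 ± 0.14, adjusted p = 0.000101). C1rb was higher without cytokine, at 4.87 against 2.55 CPM (0.91 ± 0.28, adjusted p = 0.0217), and C1s2 lower under TNF, at 1.23 against 2.89 CPM (-1.23 ± 0.38, adjusted p = 0.0228). Near-identical sequence joins C1rb to C1ra and C1s2 to C1s1, so these pairs are not separate observations.

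As a description of which genes shared a member's pattern, Pearson's r of log2 CPM was taken over the 32 libraries, which share groups and replicate sets. C1ra was most like C1rb (0.997) and then Dtx3l (0.992), and C2 was most like C1ra (0.98). Serping1 was most like H2-Eb1 (0.986), Pacsin1 and H2-DMb1 (0.982 each), of which H2-Eb1 and H2-DMb1 are class II antigen presentation genes. C4b was most like Lap3 (0.973) and Irf8 (0.968), and C1s1 most like Nub1 (0.978) and Tgm2 (0.97). C3 and Cfb shared Ifnar2 among their nearest genes (0.959 and 0.969), and Cfb was most like H2-K2 (0.97). Cd55 was most like Jag1, a Notch ligand (0.955), with the next gene, Pik3c2b, at 0.87. Cd59a was most like Ctnnbip1 (0.936) and Cd93 (0.93).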

How the data were processed

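Total RNA of 32 Veravec libraries was sequenced. Per the labels and the deposited files, the authors trimmed reads with cutadapt (4.9), checked them with FastQC (0.12.1) and MultiQC (1.27.1) and made raw counts per gene with featureCounts. The sources used here do not give the aligner, genome build, annotation or strand setting. The merged table matched the per-library tables summed by symbol in every cell. No 2 libraries of a group had identical counts. The group spelled si-dnmtl + TNF in the labels was taken as si-dnmt + TNF.

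From the counts, edgeR (4.0.16) quasi-likelihood tests were run in R (4.3.3) on all 32 libraries in 8 groups, with TMM scaling, filterByExpr at a minimum count of 10 and Benjamini-Hochberg adjustment over 15254 genes, two-sided, called at 0.05. Errors on log2 fold changes are standard errors. CPM are counts per 1000000 of a library's total over the tested genes multiplied by its TMM factor. CPM per kb divides by union exon length in GENCODE M21. DESeq2 (1.42.0) and other settings are given in the closing section.

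Same-numbered libraries of different groups deviated together (r 0.3 to 0.62 over 112 pairs, median 0.42). A second fit therefore took the replicate number as a pairing (the block), while the main tests did not. Other numbers of the same set of 2 (1 and 2, or 3 and 4) deviated together about as much (median 0.41), and those of the other set went opposite (median -0.41). Nothing in the labels says that replicates came from separate cultures or dates, so p-values measure the spread between these libraries.

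The 9 members and the longer list were chosen with earlier results of these data known. Named were all members, Dnmt1, the 10 genes of the longer list with the largest absolute log2 fold change among those called, near-identical copies, and the 3 genes most like each member, of which the first or more are printed. Marker genes, genes overlapping a member's exons, and the membrane regulator genes Cr1l and Cd46 were named besides. Some genes of these lists are not reported here.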

Additional observations from a re-analysis of the deposited data

Results flagged for a closer look

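In 2 groups there was a library far from its 3 fellows, by Dixon's criterion for 4 values. Up to 72 groups were looked at, and chance marks about 1 in 20. Serping1 in si-dnmt + TNF replicate 4 was at 0 CPM while replicates 1 to 3 held 0.369 to 0.412 CPM, a gap of 0.896 of the range. Cd55 in si-control + TNF replicate 4 was at 116 CPM while the others held 134 to 138 CPM, a gap of 0.852 of the range. The cause of neither was tested.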

How the results depend on the processing

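The cause of the changes below was not tested. Shares of all genes called were taken for the main fit and, with the block, for silencing and interactions only. Counts under the other settings have no background beside them and are not read as results about these genes. The replicate block pairs libraries by number. With it the 9 members gave under Dnmt1 silencing 3 higher and 1 lower without cytokine and 2 higher and 1 lower under TNF. They gave 1 higher and 1 lower under IFN, and 1 higher and 2 lower under both. In interactions they gave 1 lower (Dnmt1 by IFN), 3 lower (Dnmt1 by both), 3 lower (TNF by IFN, si-control) and 2 lower (si-dnmt). Under silencing the longer list with the block gave 3 higher and 2 lower without cytokine, and 5 higher and 2 lower under TNF. It gave 2 higher and 5 lower under IFN, and 4 higher and 3 lower under both. In cytokine responses it gave 5 higher and 4 lower with IFN in si-control. In si-dnmt it gave 7 higher and 4 lower with TNF, and 5 higher and 2 lower with IFN. Beyond those printed beside the results, the block changed no call of the 9 members, and in the longer list it gained 2 to 5 calls in each of 10 comparisons and lost 0. DESeq2 gave 2 higher members under TNF and 2 higher genes of the longer list under both. Without the low-count filter the counts were 0 higher members under both, 1 lower for IFN in si-dnmt and 0 lower of the longer list under IFN. With the contrast's groups fitted alone they were 0 higher under both and 0 lower for TNF in si-control.

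Replicates 1 and 2 alone gave, under silencing, 5 higher and 1 lower without cytokine, 5 and 2 under TNF, 2 and 2 under IFN and 2 and 2 under both, then 2 lower for IFN in si-control, and in interactions 1 higher and 1 lower (Dnmt1 by TNF), 2 lower (Dnmt1 by IFN), 3 lower (Dnmt1 by both), 5 lower (TNF by IFN, si-control) and 4 lower (si-dnmt). Replicates 3 and 4 alone gave 2 higher and 4 lower under TNF, 2 lower under IFN, 0 higher and 5 lower under both, and in interactions 4 lower (Dnmt1 by TNF), 4 lower (Dnmt1 by both), 1 higher and 5 lower (TNF by IFN, si-control) and 2 lower (si-dnmt). With 2 libraries a group these fits hold a smaller spread. How many of all genes they called was not taken, so these counts cannot be set against a background. Leaving out single libraries gave 0 to 1 higher members under both (silencing), 1 to 2 lower with IFN in si-control and 1 to 2 in si-dnmt.

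Some values that the main fit did not call changed sign. Among them the 2 replicate sets each gave a call, in opposite directions, for C1ra and Cfb with si-dnmt under TNF. Replicates 1 and 2 gave 0.60 and 0.38, and replicates 3 and 4 gave -0.26 and -0.49. The same held for the C1s1 interaction (Dnmt1 by TNF), at 0.75 and -1.25. In replicates 3 and 4 alone the log2 difference with si-dnmt was -0.16 for C2 without cytokine, -0.26, -0.27, -0.49 and 0.34 for C1ra, C4b, Cfb and Cd59a under TNF, 0.11 and -0.25 for C3 and Serping1 under IFN, and -0.08 for Serping1 under both, and the C1s1 interaction was -1.25 (Dnmt1 by TNF) and -0.94 (Dnmt1 by both). In replicates 1 and 2 alone it was 0.16 for C2 under both and -0.25 for the Cd59a TNF by IFN interaction, and with the replicate block Cd59a under TNF was 0. Leaving out single libraries gave, under TNF, -0.23 to 0.46 for Cfb and -0.15 to 0.17 for Cd59a, under IFN -0.78 to 0.12 for C3 and -0.08 to 0.46 for Serping1, and under both -0.32 to 0.08 for C2 and -0.01 to 0.55 for Serping1. For interactions it gave -0.25 to 0.71 (C1s1) and -1.11 to 0.01 (C3) for Dnmt1 by TNF, -0.29 to 0.67 (C1s1) for Dnmt1 by both, and -0.87 to 0.2 (C3) and -0.04 to 0.28 (Cd59a) for TNF by IFN in si-control. DESeq2's size factors and summed copies changed no count by over 1.5 times and no sign. Depth limits Serping1 without IFN.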
